A study of Mus musculus with 44 samples.

Results

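Where IRF3 and NF-kB lay on the same DNA was examined in wild-type (WT) bone marrow-derived macrophages, after lipopolysaccharide (LPS) and without treatment. Within each treatment the IRF3 intervals were set against the NF-kB intervals, and a peak was co-occupied when it shared at least 1 bp with a peak of the other factor. All other peaks were called IRF3 alone or NF-kB alone. The 4 WT lists held 6549 of the 15489 peaks in the 8 lists of the series. These were 1424 IRF3 and 2494 NF-kB peaks with LPS, and 1169 IRF3 and 1462 NF-kB peaks without it.

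The macrophages came from C57BL/6 mice, either WT or with a knockout (KO) of the DNA methyltransferase gene Dnmt3a, and were profiled by ChIP-seq, a method that recovers the DNA bound by an immunoprecipitated protein. Marrow cells were cultured in 30 ng/ml M-CSF and 10% serum and used between day 8 and day 10, and LPS was given at 10 ng/ml for 6 hours. WT cells carried no Dnmt3a deletion. The WT lists with LPS combined 2 IRF3 samples and 3 NF-kB samples, and the untreated WT lists combined 3 samples for each factor. KO lists were used to see where peaks of either factor were found again at WT peaks and to define regions present in every list. The overlap shares were also counted in them. The KO lists combined 3 samples each except for the untreated IRF3 list with 2. The labels name no NF-kB subunit and do not say whether samples of a group came from separate animals.

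IRF3 is a transcription factor that stays in the cytoplasm until Toll-like receptor or nucleic acid sensor signalling leads to its phosphorylation, after which it enters the nucleus and drives type I interferon genes. NF-kB dimers are held in the cytoplasm by IkB proteins and released when those are degraded, and they drive inflammatory genes and the genes of their own inhibitors. In macrophages LPS signals through TLR4 to both factors, and the interferon beta enhancer is the textbook case of a site where both bind side by side.

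Each list merges its samples, so no value below has a spread between replicates and no difference was tested. Intervals beside shares are exact binomial ones (Clopper-Pearson, 95%) for counting error alone. Read depths were not analysed here. Median peak width was 1245 bp (IRF3, LPS), 1035 bp (NF-kB, LPS), 1267 bp (IRF3, untreated) and 1173.5 bp (NF-kB, untreated). The deposited q-values reached 0.904, and 142 IRF3 and 330 NF-kB peaks with LPS had a q-value under 0.05, against 184 and 135 without treatment. The labels' macrophage identity could not be checked from occupancy. Of the 20 macrophage identity genes only Fcgr1 had a WT peak of either factor within 10 kb.

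Some promoter stretches under NF-kB peaks that no IRF3 peak overlapped after LPS are printed here. Promoter windows from RefSeq (GRCm38.p6, the assembly also named mm10) run from 250 bases before to 50 bases after a transcript start. Capitals mark matches to the kB consensus, the DNA motif of NF-kB, searched on both strands. The Tnfaip3 stretch (chr10:19015399-19015660, minus strand) and the Nlrp3 stretch (chr11:59541406-59541554, plus strand) lay under peaks of NF-kB at 2 known targets. The Lrmda stretch (chr14:22019462-22019706, plus strand) is shown as a further match under a peak of the same class. These 3 are the windows of the class that held a kB match, so they do not stand for the others. The window of Irak3, a listed inflammatory target under a peak of the same class, held none and is not printed. The Gm36816 window (chr6:67008938-67009237, minus strand) is shown for contrast because peaks of both factors covered it in both treatments.
Tnfaip3: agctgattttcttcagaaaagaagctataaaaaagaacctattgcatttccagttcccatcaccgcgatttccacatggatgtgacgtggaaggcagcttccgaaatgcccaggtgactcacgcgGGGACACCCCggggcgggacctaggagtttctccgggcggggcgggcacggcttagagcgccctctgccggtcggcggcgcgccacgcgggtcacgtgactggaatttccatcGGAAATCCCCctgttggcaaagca
Nlrp3: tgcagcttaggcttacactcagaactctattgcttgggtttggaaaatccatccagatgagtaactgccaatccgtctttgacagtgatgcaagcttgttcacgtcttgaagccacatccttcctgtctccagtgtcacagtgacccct
Lrmda: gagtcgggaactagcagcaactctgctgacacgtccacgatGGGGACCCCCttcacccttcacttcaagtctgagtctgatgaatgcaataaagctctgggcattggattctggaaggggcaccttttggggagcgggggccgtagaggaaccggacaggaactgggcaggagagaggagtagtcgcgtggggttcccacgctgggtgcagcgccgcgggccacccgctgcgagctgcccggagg
Gm36816: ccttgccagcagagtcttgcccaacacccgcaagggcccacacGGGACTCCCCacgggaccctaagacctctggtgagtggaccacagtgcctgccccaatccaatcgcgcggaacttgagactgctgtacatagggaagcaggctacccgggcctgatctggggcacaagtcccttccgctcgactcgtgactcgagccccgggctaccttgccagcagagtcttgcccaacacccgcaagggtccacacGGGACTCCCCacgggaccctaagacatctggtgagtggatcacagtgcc

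The Tnfaip3 stretch held 2 kB matches, and the one nearer to the transcript start (chr10:19015413-19015422) ended just before it. In the Nlrp3 promoter the single match (chr11:59541383-59541392) lay outside the peak, on its upstream side. Promoter windows rarely carried a peak of any class. With LPS, 19 of 32851 windows (0.0578%) were overlapped by an NF-kB alone peak, against 6 (0.0183%) by a co-occupied peak and 2 (0.00609%) by an IRF3 alone peak. Without treatment these numbers were 3 (0.00913%), 4 (0.0122%) and 3 (0.00913%). A kB match was present in 3 of the 19 windows, 15.8%, and in 1480 of all 32851 windows, 4.51%. The interferon-stimulated response element, written here as 2 copies of GAAA with 2 bases between them and known as a motif of IRF3 and other interferon regulatory factors, was present in 1 of the 19 windows and in 1131 of all windows, 3.44%. The printed stretches held no such element, and none of the 5 windows under IRF3 alone peaks held either motif. These counts are too small to compare the classes, and a match is a description of the letters and not a bound site.

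At full list length, most IRF3 peaks were co-occupied and most NF-kB peaks were not, in both treatments. With LPS, 955 of 1424 IRF3 peaks overlapped an NF-kB peak (67.1%, 64.6 to 69.5%), and without treatment 649 of 1169 did (55.5%, 52.6 to 58.4%). From the side of NF-kB, 931 of 2494 peaks overlapped an IRF3 peak with LPS (37.3%, 35.4 to 39.3%), against 656 of 1462 without treatment (44.9%, 42.3 to 47.5%). The LPS minus untreated difference was therefore 11.5 percentage points for IRF3 (7.73 to 15.3) and -7.54 points for NF-kB (-10.8 to -4.32). The direction for NF-kB was the opposite at equal list length, a cut that also left out the lowest-ranked peaks of the longer lists. When all 4 lists were cut to their 1169 best-ranked peaks, the NF-kB share was 55.0% with LPS and 50.7% without treatment, a difference of 4.28 points (0.170 to 8.37), and the IRF3 difference was 6.33 points (2.23 to 10.4). In the KO lists at full length both directions were the opposite of those in the full WT lists. There the IRF3 share was 61.4% (59.1 to 63.7%) with LPS and 76.7% (74.6 to 78.7%) untreated. The KO NF-kB share was 47.6% (45.5 to 49.6%) with LPS and 41.0% (39.2 to 42.7%) untreated. The KO NF-kB list was shorter with LPS (2376 peaks) than untreated (3065 peaks), whereas in WT it was longer with LPS. The KO lists were not cut to equal length, and the part of list length in these directions was not tested.

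Joined into regions, runs of overlapping peaks of both factors, the peaks with LPS formed 2940 regions, of which 908 (30.9%) were co-occupied, 469 (16.0%) were IRF3 alone and 1563 (53.2%) were NF-kB alone. The untreated peaks formed 1956 regions, of which 630 (32.2%) were co-occupied, 520 (26.6%) were IRF3 alone and 806 (41.2%) were NF-kB alone. Co-occupied regions made up the larger part of the covered bases in both treatments. They spanned 1.94 Mb with LPS (52.2% of the covered length) and 1.45 Mb without treatment (53.6%). The largest class by number in both treatments was thus NF-kB alone, which held 1563 regions with LPS and 806 without it, while IRF3 alone held 469 and 520. The NF-kB list itself was longer with LPS, at 2494 peaks against 1462 without treatment.

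The co-occupied share was highest among the best-ranked peaks of each list and lower towards its end. Peaks were ranked within a list by the deposited p-value. In the best-ranked 10% of the lists with LPS, 94.4% of IRF3 peaks (89.2 to 97.5%) and 91.6% of NF-kB peaks (87.4 to 94.7%) were co-occupied. In the last 10% the shares were 39.4% (31.3 to 48.0%) and 14.5% (10.3 to 19.4%). Without treatment the best-ranked 10% stood at 92.3% for IRF3 and 90.4% for NF-kB and the last 10% at 24.8% and 21.9%. Of the 100 best-ranked peaks with LPS, 96 in the IRF3 list and 94 in the NF-kB list were co-occupied, and without treatment 92 were in each list. The decline was not the same in each list, and many co-occupied peaks ranked lower. The best 3 bins of 10 with LPS held 384 of the 955 co-occupied IRF3 peaks (40.2%) and 531 of the 931 co-occupied NF-kB peaks (57.0%), and the untreated ones held 47.1% and 51.8%. The fourth to seventh bins of the IRF3 list with LPS stood at 66.2 to 71.8%.

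**Figure D1:**
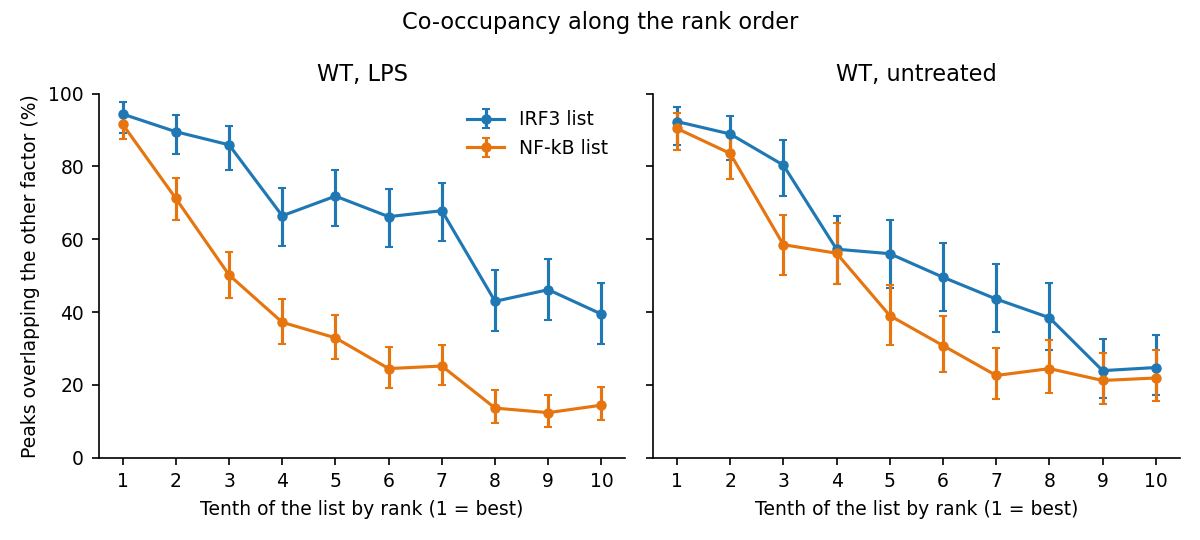
Share of peaks that overlap a peak of the other factor (vertical axis, percent) in 10 bins of each list in rank order (horizontal axis, 1 = best), with LPS at left and untreated at right. Blue points are the IRF3 list and orange points the NF-kB list, and bars are exact 95% intervals. With LPS the IRF3 share lies at 94.4% in the first bin and 39.4% in the last, and the NF-kB share at 91.6% and 14.5%.

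The co-occupied peaks were wider than the others. With LPS the median width was 1512 bp for co-occupied IRF3 peaks and 1606 bp for co-occupied NF-kB peaks, against 715 bp for IRF3 alone and 713 bp for NF-kB alone. Without treatment the medians were 1696 and 1681 bp for co-occupied peaks, against 741.5 bp for IRF3 alone and 824 bp for NF-kB alone. Peaks under 500 bp, nearer to the 100 to 300 bp of the sheared fragments, made up 5.86% of co-occupied IRF3 peaks and 6.02% of co-occupied NF-kB peaks with LPS, but 37.5% of IRF3 alone (33.1 to 42.1%) and 35.8% of NF-kB alone (33.4 to 38.2%). Untreated, these shares were 3.70%, 8.08%, 34.6% and 29.0% in the same order. Of peaks at least 2000 bp wide, 96.3% in the IRF3 list and 79.0% in the NF-kB list with LPS were co-occupied, and 91.8% and 79.7% without treatment. Width thus moved with the class in both treatments, and its part in the overlap was not tested.

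**Figure D2:**
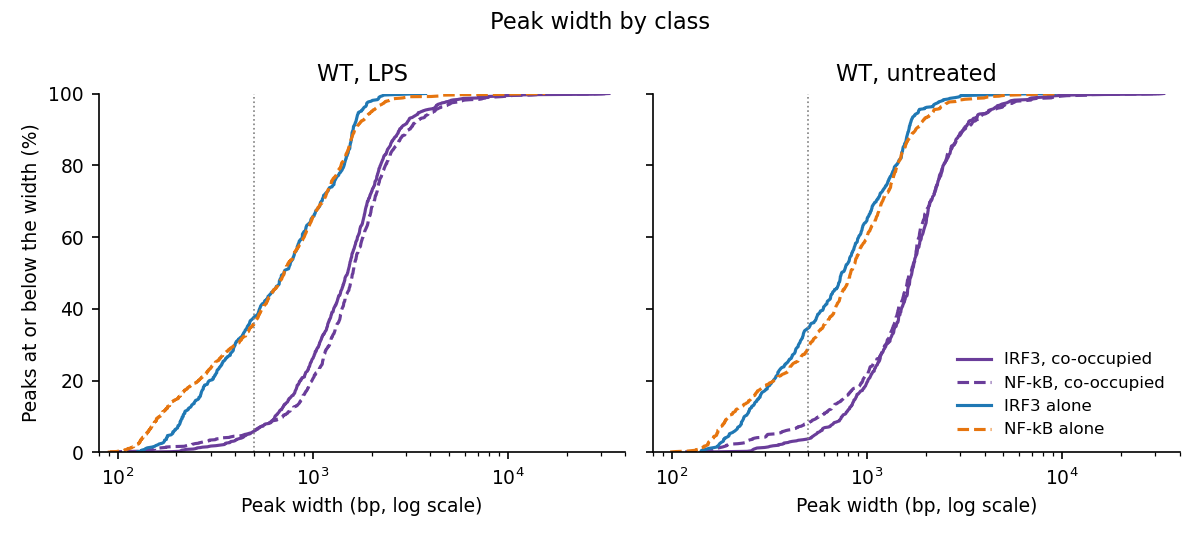
Cumulative share of peaks (vertical axis, percent) at or below each width (horizontal axis, bp, log scale), with LPS at left and untreated at right. Purple lines are co-occupied peaks (solid IRF3, dashed NF-kB), the blue line is IRF3 alone, the orange line is NF-kB alone, and the dotted line marks 500 bp. The co-occupied curves lie to the right of the others, with medians of 1512 to 1696 bp against 713 to 824 bp.

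Within most co-occupied pairs the shorter interval lay nearly wholly inside the longer one. The 955 IRF3 and 931 NF-kB peaks with LPS formed 978 overlapping pairs, and the untreated peaks formed 675. In 51.9% of pairs with LPS and 52.9% of untreated pairs one interval lay wholly inside the other. The median distance between centres was 122 bp with LPS and 131.5 bp without treatment, and centres lay within 200 bp in 67.7% and 64.6% of pairs. The IRF3 interval was the wider one in 40.8% of pairs with LPS and in 54.8% of untreated pairs. Over the pairs, widths in the lists of both factors had a Spearman rho of 0.76 with LPS (978 pairs) and 0.76 without (675 pairs), and ranks one of 0.56 and 0.53. These are descriptions over pairs that share bases by definition.

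Many co-occupied peaks also stood in every other list of the series. When all 8 lists were joined, 360 of 5605 regions held a peak in each list, and the median width of these recurrent regions was 2471.5 bp. They contained 39.7% of co-occupied IRF3 peaks (36.6 to 42.9%) and 38.9% of co-occupied NF-kB peaks (35.7 to 42.1%) with LPS. Untreated, they contained 56.9% (52.9 to 60.7%) and 57.3% (53.4 to 61.1%). By definition nearly all peaks in such a region are co-occupied, and no more than 0.744% of IRF3 alone or NF-kB alone peaks lay in one. Without the recurrent regions, 55.1% of IRF3 peaks (52.0 to 58.2%) were co-occupied with LPS, against 35.0% (31.7 to 38.5%) without treatment. The NF-kB shares were then 26.8% and 25.9%, a difference of 0.825 points (-2.48 to 4.06).

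The 5 best-ranked co-occupied sites within 100 kb of a gene in each treatment were found in all 8 lists. The 5 co-occupied IRF3 peaks with LPS that ranked among them but lay farther from a gene were 272 to 6976 bp wide, and the narrowest of these, at rank 1, is described with the narrow pairs. A site 3081 bp from 9230019H11Rik on chromosome 10 was 7046 bp wide in the IRF3 list and 7408 bp wide in the NF-kB list with LPS, at ranks 4 and 2. In the untreated lists it stood at ranks 4 and 2, and in the 4 KO lists between ranks 2 and 4. The site near Vmn1r2, which lies in a family of pheromone receptor genes, was 80935 bp from the gene and held rank 1 in both untreated WT lists. With LPS it held rank 12 in the IRF3 list and rank 1 in the NF-kB list. The widest peak with LPS lay 33547 bp from 4932411N23Rik on the X chromosome and spanned 32930 bp in the IRF3 list with LPS (rank 3) and 32812 bp in the NF-kB list with LPS (rank 478).

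A co-occupied site lay 5073 bp from Cdkn1a, the gene of the cell cycle inhibitor p21. It was 3058 bp wide at rank 5 in the IRF3 list and 3053 bp wide at rank 49 in the NF-kB list with LPS, and it ranked 19 and 7 without treatment. All 4 KO lists held it too. Of the other leading sites with LPS, that near Gm21119 lay 13859 bp from the gene and that near Cntn1, a neural adhesion gene, 57213 bp from it. In the untreated lists the further leading sites lay near Sfi1, a centrosome gene, Gm15319 and Vmn1r157, at IRF3 ranks 6, 8 and 9. The untreated IRF3 peaks near Vmn1r2, 9230019H11Rik and Sfi1 began at bases 3089539, 3109766 and 3112470 of chromosomes 4, 10 and 11. Input signal was not examined at these sites, and no list of known high-signal regions was applied here. High rank in both lists is thus no measure of joint binding. A name gives only the closest protein-coding gene, and no expression was measured. Several are members of families with many similar copies, to which a read can map ambiguously.

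Pairs in which both peaks were narrow were rare. With LPS, 18 of 978 pairs (1.84%, 1.09 to 2.89%) joined an IRF3 and an NF-kB peak that were each under 500 bp, and without treatment 15 of 675 did (2.22%, 1.25 to 3.64%). The best-ranked IRF3 peak with LPS was in such a pair. It spanned 272 bp on chromosome 4 (64497779 to 64498050), with an NF-kB peak of 155 bp at rank 26 inside it, and the closest gene, Tnc, which encodes the matrix protein tenascin C, was 450763 bp away. Without treatment an IRF3 peak of 265 bp at rank 2 lay there with no NF-kB peak, so the site counted as IRF3 alone. A pair inside Mdga2, a neural adhesion gene, was found in both treatments. It was 435 bp wide in the IRF3 list and 480 bp wide in the NF-kB list with LPS, and 435 and 414 bp wide without treatment. A pair inside the claudin gene Cldn34d was likewise found in both treatments, at 378 and 394 bp with LPS and 394 and 377 bp without. No gene of the 15 gene lists had a co-occupied peak under 500 bp within 10 kb in either treatment, where 0.201% of all protein-coding genes did with LPS and 0.114% untreated.

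IRF3 alone peaks were few, low in rank and seldom seen again. Of the 469 peaks with LPS, 8 had a q-value under 0.05 (1.71%, 0.739 to 3.33%), against 134 of 955 co-occupied IRF3 peaks (14.0%, 11.9 to 16.4%). The untreated counts were 13 of 520 (2.50%) and 171 of 649 (26.3%). The median rank of IRF3 alone peaks was 1015 of 1424 with LPS and 799 of 1169 without treatment. The nearest NF-kB peak of the same treatment was a median of 151 kb away with LPS and 229 kb away without it. The NF-kB list held 2494 peaks with LPS and 1462 without it, and the part of list length in these distances was not tested. Only 24 of the 469 peaks with LPS and 5 of the 520 untreated peaks had an NF-kB peak within 1 kb. Widened to all 4 NF-kB lists of the series, 251 of the 469 (53.5%) and 253 of the 520 (48.7%) still overlapped none. Among those under 500 bp these were 144 of 176 (81.8%, 75.3 to 87.2%) and 150 of 180 (83.3%, 77.1 to 88.5%).

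One IRF3 alone site stood at rank 2 or 3 in every IRF3 list. It lay inside Itgb5, the gene of integrin beta 5, at chr16:33849221-33849542 with LPS. It was 322 bp wide at rank 2 with LPS and 408 bp wide at rank 3 untreated in WT, and 351 bp wide with LPS and 484 bp wide untreated in KO, at rank 2 in both. The deposited q-values were 2.57e-05 with LPS and 9.81e-07 untreated in WT. No NF-kB list held a peak there. A 209 bp peak 4507 bp from the odorant receptor gene Olfr1055 was the other IRF3 alone site with LPS that occurred in all 4 IRF3 lists and no NF-kB list. It ranked 182 with LPS and 549 without treatment.

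The next IRF3 alone peaks with LPS that lay within 100 kb of a gene were near Fbxw4, Ly6c2, Gm17019 and Zfp872, at ranks 39 to 124. A pair of IRF3 alone peaks farther from a gene also ranked ahead of Zfp872, 1 of 289 bp at rank 27 and 1 of 831 bp at rank 89. The Ly6c2 peak, 22031 bp from a gene of a monocyte surface protein, was 207 bp wide at rank 121 and had no NF-kB peak in any list. The Fbxw4 and Zfp872 peaks were 1568 and 2274 bp wide, and each position was an NF-kB peak in the untreated WT list, at ranks 156 and 245. Without treatment the best-ranked peaks of the class within 100 kb of a gene were near Itgb5, Gm17019, Speer4c, Gm21119 and A630073D07Rik, at ranks 3 to 67. The site far from Tnc ranked ahead of them at rank 2, and another peak far from a gene, 438 bp wide, stood at rank 42. The Gm21119 and A630073D07Rik positions held NF-kB peaks with LPS at ranks 7 and 175, so they counted as IRF3 alone in 1 treatment only.

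No IRF3 peak of either class lay near a classical target of the factor. The list of interferon-stimulated and IRF3 target genes matched 39 genes, and within 10 kb none had an IRF3 alone peak or a co-occupied peak in either treatment. Over all 21887 protein-coding genes, 0.713% had an IRF3 alone peak and 1.59% had a co-occupied peak within 10 kb with LPS, against 0.754% and 1.04% without treatment. Counts of 0 of 39 are near that background and say nothing particular of these genes. In all 15 gene lists no gene had an IRF3 alone peak within 10 kb in either treatment.

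NF-kB alone peaks were the class in which known targets of the factor appeared after LPS. Among 22 genes of NF-kB feedback and signalling, 4 had an NF-kB alone peak within 10 kb with LPS (Tnfaip3, Malt1, Tnip1 and Bcl3), and among 30 inflammatory targets 4 did (Sod2, Fth1, Nlrp3 and Irak3). The share over all protein-coding genes was 2.76%. Untreated, no gene of these lists had such a peak, with 1.5% over all genes. No IRF3 peak of either treatment lay within 10 kb of any of the 8. Counting only peaks under 500 bp, 7 of the 8 genes kept a peak, all but Tnip1, whose peak was 519 bp wide. The 8 were picked for having a peak of this class, so 7 of 8 cannot be set against the share over all genes. With LPS 604 of all protein-coding genes had an NF-kB alone peak, and 224 (1.02% of all genes) had one under 500 bp. The untreated share under 500 bp was 0.429% of all genes. Both gene lists were written with results of the data known, so their counts are no independent evidence of where NF-kB was found.

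The feedback genes encode proteins that limit or shape NF-kB signalling. Tnfaip3 encodes A20, an enzyme that edits ubiquitin chains and shuts off NF-kB signalling, and its 302 bp peak covered the transcript start at rank 389 of 2494 (signal value 16.8, q-value 0.0695). In the KO list with LPS the peak there was 372 bp wide at rank 53 of 2376, and the other 6 lists held none. Malt1 encodes a paracaspase that cuts A20, and its 245 bp peak lay 283 bp outside the gene at rank 365 (q-value 0.0623). Tnip1 encodes an A20-binding inhibitor, and its 519 bp peak lay in the gene at rank 815 (q-value 0.242). Bcl3 encodes a nuclear IkB protein, and its 170 bp peak overlapped the gene at rank 1998 (q-value 0.869). In KO with LPS these last 3 ranked 133, 163 and 767.

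The peaks at the inflammatory targets were all under 500 bp wide. Sod2, the gene of mitochondrial superoxide dismutase, had a peak of 175 bp at chr17:13010180-13010354 (rank 284, q-value 0.0348). Fth1, the gene of the ferritin heavy chain, had a pair of peaks outside the gene. One was 473 bp wide and 5326 bp away (rank 119, q-value 0.00818), and the other was 150 bp wide and 1972 bp away (rank 1151, q-value 0.380). Nlrp3, the gene of the inflammasome sensor, had a 149 bp peak 14 bp outside its annotated span (rank 1085, q-value 0.352). Irak3, the gene of an inhibitory member of the IL-1 receptor-associated kinase family, had a 284 bp peak over its transcript start (rank 1728, q-value 0.683).

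Each of these positions was listed again in KO cells with LPS and in no untreated list and no IRF3 list. In KO with LPS, Sod2 ranked 170, the Fth1 pair 28 and 497, Nlrp3 653 and Irak3 948 of 2376 peaks. Of the 9 WT peaks at the 8 genes only those of Sod2 and the farther Fth1 peak had a q-value under 0.05, and the other 7 had q-values of 0.0623 to 0.869. The Irak3 peak also covers the start of a neighbouring transcript on the other strand, Gm38500, and the peak near Bcl3 overlapped the promoter window of Gm16174, so the assignment to 1 gene is not unique.

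**Figure D3:**
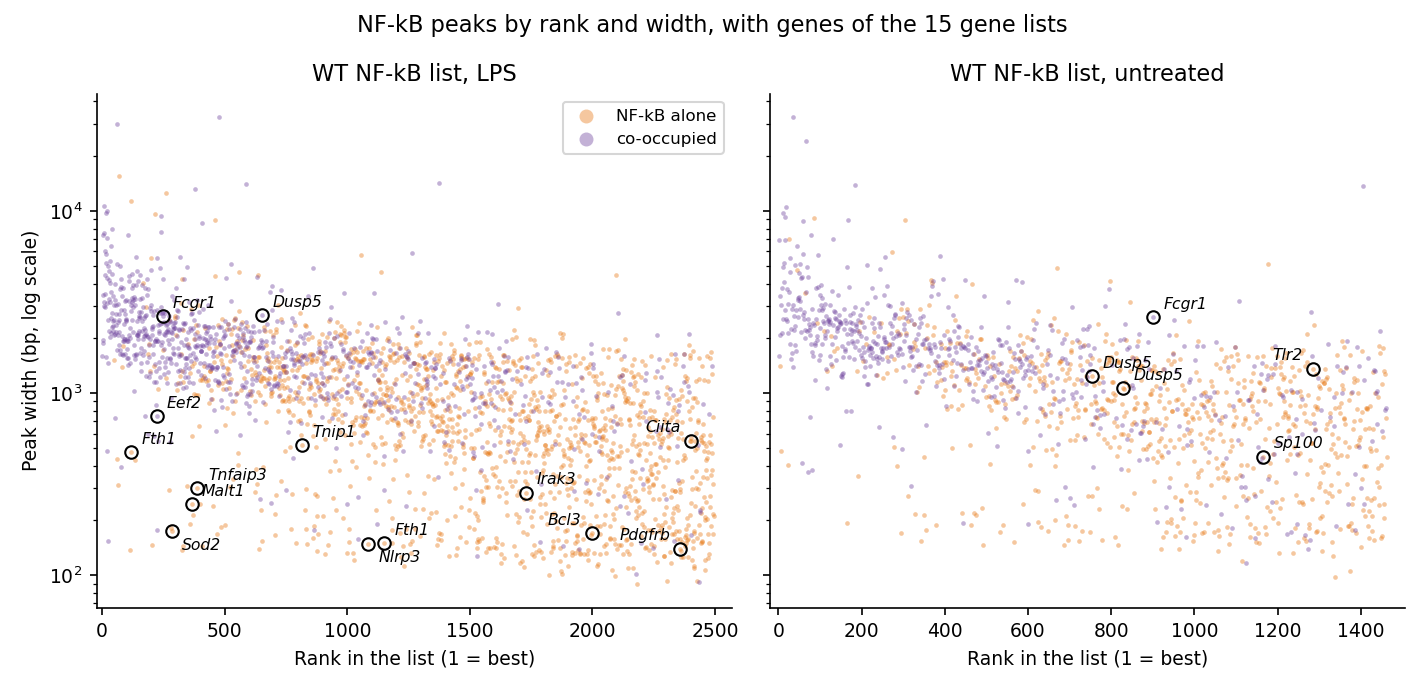
Rank (horizontal axis, 1 = best) and width (vertical axis, bp, log scale) of every NF-kB peak, with LPS at left and untreated at right. Orange points are NF-kB alone, purple points are co-occupied, and circles mark peaks within 10 kb of a gene of the 15 gene lists. With LPS the circles at the NF-kB targets (Tnfaip3, Malt1, Tnip1, Bcl3, Sod2, Fth1, Nlrp3 and Irak3) lie between 149 and 519 bp.

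The other genes of the lists gave single entries. With LPS, Ciita, the gene of the MHC class II transactivator, had a 548 bp NF-kB alone peak at rank 2404, and Pdgfrb, a receptor gene used as a stromal marker, had one of 140 bp at rank 2359. Both had a q-value of 0.904 and neither position was listed in KO cells. Without treatment Sp100, an interferon-induced nuclear body gene, had a 448 bp NF-kB alone peak at rank 1166 of 1462, which no other list held. Tlr2, the gene of the receptor for bacterial lipoproteins, had one of 1362 bp at rank 1285, which both KO NF-kB lists held too. None of the markers of T cells, B cells, neutrophils, erythroid or dendritic cells had a peak of any class within 10 kb. No other stromal marker had one.

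Co-occupied peaks lay within 10 kb of 3 of 232 listed genes with LPS and 1 of 232 without treatment. Over all protein-coding genes the shares were 1.59% and 1.04%, so the listed genes did not stand above that background. Fcgr1, which encodes the high-affinity IgG receptor of macrophages, had them in both treatments, 2147 bp wide for IRF3 and 2648 bp for NF-kB with LPS and 2733 and 2607 bp untreated, at a distance of 9552 to 9983 bp. All 8 lists held that position. Dusp5, which encodes a phosphatase of the kinase ERK, had a co-occupied site with LPS (IRF3 rank 866, q-value 0.627; NF-kB rank 652, q-value 0.159). In untreated cells the same position was NF-kB alone, as a pair of adjoining peaks at ranks 755 and 829. Eef2, which encodes a translation elongation factor, had a co-occupied site of 666 bp (IRF3) and 746 bp (NF-kB) inside the gene with LPS, which neither untreated WT list held but all 4 KO lists did.

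The best-ranked NF-kB alone peaks lay away from these genes. With LPS those within 100 kb of a gene lay near Gm17660 (1522 bp, rank 50), Fgd2 (315 bp, rank 65), Zmat1 (15512 bp, rank 69), Tmem125 (1389 bp, rank 80) and Erg (1818 bp, rank 84). The Gm17660 peak was in all 4 NF-kB lists and no IRF3 list. The Fgd2 peak, 15866 bp from the gene of a Cdc42 exchange factor, was in the LPS lists of both genotypes alone. The Zmat1 and Erg positions held an IRF3 peak in the untreated WT list, and those of Zmat1, Erg and Tmem125 held one in both KO IRF3 lists. A peak 124021 bp from Fgf14 ranked 62 with LPS (436 bp wide), and one 123997 bp from it ranked 6 without treatment (481 bp wide). Without treatment the best-ranked peaks within 100 kb of a gene were near Gm39469, Vps45, Tmem267, Mid1 and Trappc6b, at ranks 5 to 63. Each of those 5 positions held an IRF3 peak in both KO IRF3 lists, and all but Vps45 held one in the WT IRF3 list with LPS.

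With LPS 41 of 1563 NF-kB alone peaks had a q-value under 0.05 (2.62%, 1.89 to 3.54%), against 289 of 931 co-occupied NF-kB peaks (31.0%, 28.1 to 34.1%). Without treatment the counts were 13 of 806 (1.61%) and 122 of 656 (18.6%). The nearest IRF3 peak was a median of 563 kb away with LPS and 906 kb away without treatment. The IRF3 list held 1424 peaks with LPS and 1169 without it, and the part of list length in these distances was not tested. With LPS 898 of the 1563 peaks (57.5%, 55.0 to 59.9%) overlapped no IRF3 peak in any of the 4 IRF3 lists, and without treatment 360 of 806 did (44.7%, 41.2 to 48.2%). Among those under 500 bp these were 467 of 559 (83.5%, 80.2 to 86.5%) and 168 of 234 (71.8%, 65.6 to 77.5%). A set of 34 NF-kB alone peaks with LPS and 38 without treatment lay in all 4 NF-kB lists and in no IRF3 list.

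Between 26.3 and 33.9% of the peaks of each class overlapped a protein-coding gene span. The share of the genome within such spans is not given here, so these values have no background beside them. With LPS the shares were 27.3% for IRF3 alone (23.3 to 31.6%), 31.3% for NF-kB alone (29.1 to 33.7%) and 26.3% for co-occupied IRF3 peaks (23.5 to 29.2%). Untreated, they were 28.5% (24.6 to 32.6%), 33.9% (30.6 to 37.3%) and 26.3% (23.0 to 29.9%). The nearest gene was a member of large copied families, counted here as odorant and pheromone receptor, zinc finger, Mup, Speer, Pramel, Skint and predicted Gm genes, for 137 of 469 IRF3 alone peaks with LPS (29.2%, 25.1 to 33.6%) and 164 of 520 untreated (31.5%, 27.6 to 35.7%). In the NF-kB alone class the shares were 15.1% (13.4 to 17.0%) with LPS and 12.4% (10.2 to 14.9%) untreated. Co-occupied peaks stood at 16.8% (IRF3, 14.4 to 19.3%) and 16.4% (NF-kB, 14.1 to 19.0%) with LPS, and at 19.7% (16.7 to 23.0%) and 19.1% (16.1 to 22.3%) untreated. Of the 21887 protein-coding genes, 3286 (15.01%) had such a name. Over all widths the IRF3 alone intervals overlapped none of the others in either treatment. Among peaks under 500 bp they overlapped those of both co-occupied classes, but not NF-kB alone. With LPS the narrow shares were 37.5% for IRF3 alone (30.3 to 45.1%) and 22.2% for NF-kB alone. Narrow co-occupied peaks stood at 19.6% (IRF3, 10.2 to 32.4%) and 39.3% (NF-kB, 26.5 to 53.2%). Untreated, these were 42.2% and 17.1% for the alone classes, 39.6% for co-occupied NF-kB peaks and 12 of 24 for co-occupied IRF3 peaks. Copies of the large families lie close together, and how far reads shared between copies enter these peaks was not tested.

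Across treatments, co-occupied regions were found again more often than the other classes. Of the 908 co-occupied regions with LPS, 457 (50.3%, 47.0 to 53.6%) had peaks of both factors in untreated cells too, 89 had IRF3 alone, 163 had NF-kB alone and 199 (21.9%, 19.3 to 24.8%) had neither. Seen from the untreated cells, 458 of 630 co-occupied regions (72.7%, 69.0 to 76.1%) had both factors with LPS and 54 had neither. IRF3 alone regions with LPS were in neither untreated list in 333 of 469 cases (71.0%, 66.7 to 75.1%), and NF-kB alone regions in 1154 of 1563 (73.8%, 71.6 to 76.0%). Untreated IRF3 alone and NF-kB alone regions were in neither LPS list in 294 of 520 (56.5%, 52.2 to 60.8%) and 343 of 806 cases (42.6%, 39.1 to 46.1%). Co-occupied regions were also wider, with a median of 1779 bp with LPS against 715 bp for IRF3 alone and 713 bp for NF-kB alone. Untreated, these medians were 1921.5, 741.5 and 824 bp. The parts of width and of the recurrent regions in these shares were not tested.

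**Figure D4:**
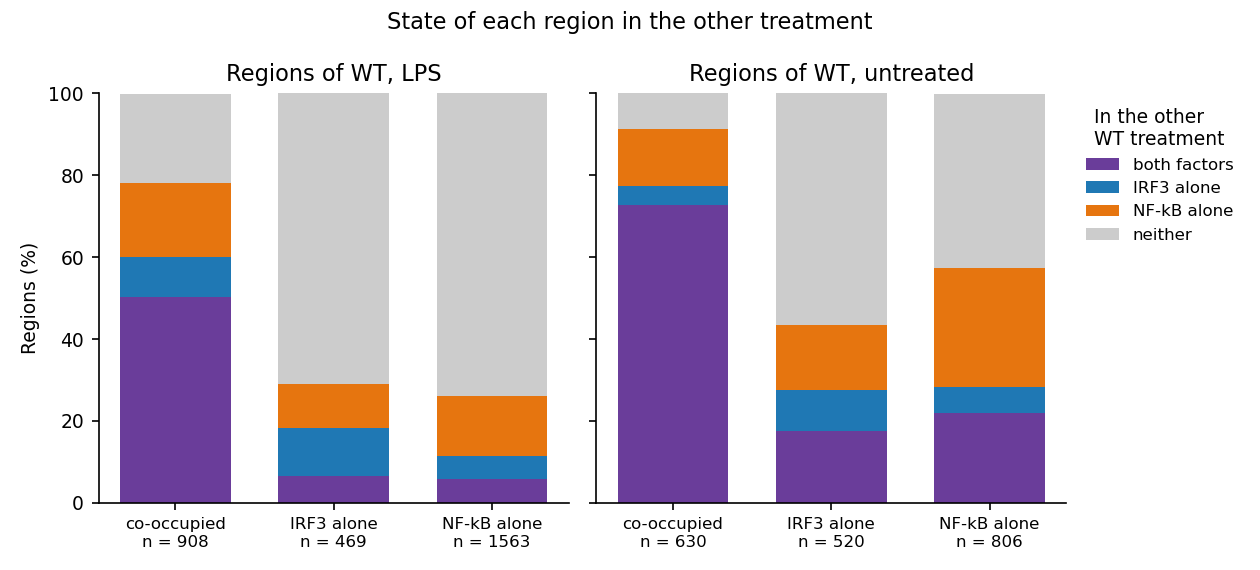
State in the other WT treatment (stacked bars, percent of regions) of co-occupied, IRF3 alone and NF-kB alone regions found with LPS (left) and in untreated cells (right). Purple is both factors, blue is IRF3 alone, orange is NF-kB alone and grey is neither. Co-occupied regions with LPS kept both factors in 50.3% of cases, and NF-kB alone regions with LPS were in neither untreated list in 73.8%.

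All 4 WT lists together formed 3595 regions, of which 458 (12.7%) were in every list and had a median width of 2274.5 bp. The most frequent pattern was a peak in the NF-kB list with LPS and in no other WT list, at 1154 regions (32.1%) with a median width of 581 bp. Regions in both LPS lists and neither untreated list numbered 199 (5.54%, median width 1301 bp). Those in both untreated lists and neither LPS list numbered 54 (median width 1317 bp). A further 46 regions were IRF3 alone with LPS and NF-kB alone untreated, and 79 were NF-kB alone with LPS and IRF3 alone untreated. IRF3 alone in both treatments were 51 regions, and NF-kB alone in both were 209.

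The factors also overlapped between lists of different treatments. The IRF3 list with LPS overlapped the NF-kB list with LPS at 67.1% and the untreated NF-kB list at 51.1% of its peaks. The untreated IRF3 list overlapped the NF-kB list with LPS at 63.0% and the untreated NF-kB list at 55.5%. With all lists at 1169 peaks these 4 shares were 57.2% (54.3 to 60.1%), 52.2% (49.3 to 55.1%), 48.2% (45.3 to 51.2%) and 50.9% (48.0 to 53.8%) in that order. The interval for the lists that both came from LPS cells overlapped that for IRF3 with LPS against untreated NF-kB, and lay above the other intervals.

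The KO lists are data that the classes did not use. With LPS, 75.7% of co-occupied IRF3 peaks (72.9 to 78.4%) and 80.6% of co-occupied NF-kB peaks (77.9 to 83.1%) had a peak of the same factor in the KO list, against 21.5% of IRF3 alone (17.9 to 25.5%) and 39.3% of NF-kB alone peaks (36.9 to 41.8%). Over all WT peaks with LPS this share was 57.9% for IRF3 and 54.7% for NF-kB. Without treatment the class values were 81.7%, 87.3%, 26.5% and 56.2% in the same order, with 57.1% for IRF3 and 70.2% for NF-kB over all peaks. Both factors were found again in KO at 620 of 908 co-occupied regions with LPS (68.3%, 65.1 to 71.3%) and at 489 of 630 without treatment (77.6%, 74.2 to 80.8%).

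IRF3 alone peaks were found again in KO at lower shares than NF-kB alone peaks, both among narrow and among wider ones. With LPS, 13 of 176 IRF3 alone peaks under 500 bp were in the KO IRF3 list (7.39%, 3.99 to 12.3%), against 136 of 559 NF-kB alone peaks in the KO NF-kB list (24.3%, 20.8 to 28.1%). Untreated, these counts were 15 of 180 (8.33%, 4.74 to 13.4%) and 78 of 234 (33.3%, 27.3 to 39.8%). Among alone peaks of 500 bp or more the shares were 30.0% for IRF3 (24.8 to 35.6%) and 47.6% for NF-kB (44.5 to 50.8%) with LPS, and 36.2% (31.1 to 41.5%) and 65.6% (61.5 to 69.5%) untreated. Narrow co-occupied peaks with LPS showed no such gap, with 26 of 56 for IRF3 (46.4%, 33.0 to 60.3%) and 25 of 56 for NF-kB (44.6%, 31.3 to 58.5%). Untreated, they stood at 8 of 24 (33.3%, 15.6 to 55.3%) and 33 of 53 (62.3%, 47.9 to 75.2%). That untreated gap had the same direction as the gap of the alone peaks. It rests on few peaks with wide intervals and was not tested. Of the narrow NF-kB alone peaks with LPS, 515 were absent from the untreated WT NF-kB list, and 114 of those (22.1%, 18.6 to 26.0%) were in the KO list with LPS. No IRF3 list of the series held 85 of the 114. The IRF3 lists of WT cells with LPS and of untreated KO cells combined 2 samples and the other lists 3. The KO lists also differed in length, with 1792 IRF3 peaks against 2376 NF-kB peaks with LPS. Untreated, they held 1707 and 3065 peaks, so NF-kB peaks had more KO peaks to overlap. The part of these differences in the shares was not tested.

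**Figure D5:**
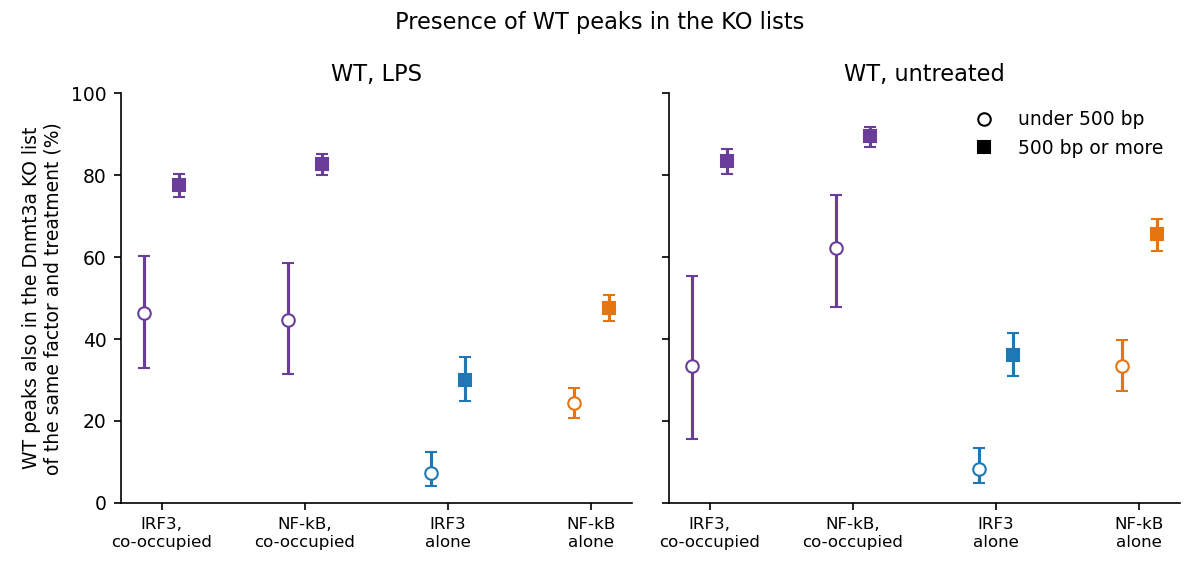
Share of WT peaks (vertical axis, percent) that overlap a peak of the same factor and treatment in Dnmt3a KO cells, by class, with LPS at left and untreated at right. Open circles are peaks under 500 bp, filled squares are wider ones, and bars are exact 95% intervals. With LPS narrow IRF3 alone peaks stand at 7.39% and narrow NF-kB alone peaks at 24.3%.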

How the data were processed

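The 4 WT and 4 KO peak lists were deposited as merged lists, 1 per group, per the labels. Bisulfite, ATAC-seq and input samples were not analysed here. The build is mm10, per the submitters' processing notes, which name MACS2 2.1.1, HOMER 4.9, deepTools 3.5.0, Picard 2.8.0 and Trim Galore 0.4.5 without roles. The aligner, the calling settings, the merging and the read depth were not given in the sources used here. Each peak carries a signal value deposited by the authors, treated as a score without a stated normalization. The deposited p-value and q-value of each peak are the authors' own. If the list names refer to a program that combines replicates by rank, these values belong to that combination rather than to enrichment over input. Within a list they were used for ranking and filtering, by p-value, then signal value, width and position.

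Overlap needed at least 1 bp, and touching peaks of 1 list stayed separate. Intervals on shares are exact Clopper-Pearson 95% intervals, and those on differences combine the bounds of both shares. They cover counting error only. Because each list merges its replicates, no test was made. Gene spans came from a RefSeq table of GRCm38.p6 with 21887 protein-coding genes, without strand or exons, so introns and exons were not separated. Of 236 symbols in 15 gene lists (9 of pathways and 6 of cell type markers), 232 matched. Named genes were the 5 best-ranked peaks per class and treatment with a gene within 100 kb, and up to 6 members per gene list with a peak within 10 kb. The pairs of narrow peaks and the sites found in all lists of 1 factor only were named after their values were seen. The members, lists and settings were chosen with earlier results of these data known. No genome sequence was used, so the planned motif search was run on RefSeq promoter windows. The planned base composition of peaks was not computed. Counting was tested on simulated lists. Python 3.11.15, NumPy 2.4.6, SciPy 1.17.1, pandas 2.3.3 and matplotlib 3.10.9 were used. Alternatives changed the overlap rule, the q-value, list length, peak width, recurrent regions, the narrow threshold and the gene distance.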

Additional observations from a re-analysis of the deposited data

How the results depend on the processing

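Replicates were not left out, and no test between treatments was made. No paired analysis was possible because each deposited list merges its group's replicates, 2 for the WT IRF3 list with LPS and 3 for the other WT lists. Read depth, list length and treatment cannot be told apart. Peak ranks rest on the deposited p-values. Requiring 50% of the shorter peak left every share and difference within its counting interval. With centres within 200 bp, the IRF3 shares were 46.5% with LPS and 37.3% untreated, and the NF-kB shares 26.5% and 29.8% (difference -3.21 points). Among peaks with a q-value under 0.05 they were 71.8% and 43.5% for IRF3 (28.4 points) and 30.9% and 59.3% for NF-kB (-28.4 points). At equal list length they were 57.2% and 50.9% for IRF3 (6.33 points) and 55.0% and 50.7% for NF-kB (4.28 points, the opposite direction). Among peaks under 500 bp in both lists they were 7.33% and 7.35% for IRF3 (-0.0254 points, the opposite direction but with bounds on both sides of 0) and 2.93% and 4.88% for NF-kB (-1.95 points). Without recurrent regions they were 55.1% and 35.0% for IRF3 (20.1 points) and 26.8% and 25.9% for NF-kB (0.825 points, the opposite direction but with bounds on both sides of 0). The cause was not tested. All 16 shares of peaks under a width threshold moved past their interval at 300 or 1000 bp. Counts of listed genes with a peak within 1 or 50 kb stayed within 1.5 times the count at 10 kb in 27 cases and did not in 19, all of them counts of 0 to 2. At thresholds of 300 and 1000 bp, narrow peaks stayed a larger part of the IRF3 alone and NF-kB alone classes than of the co-occupied classes in both treatments.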
